A study of Mus musculus with 6 samples.

Results

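Desmosomes are spot-like junctions that tie neighbouring epithelial cells together and anchor keratin filaments at the membrane. The transcripts described here encode 10 proteins of that system, chosen by gene symbol (DSG2, DSC2, DSP, PKP2, PKP3, PKP4, KRT8, KRT18, KRT19 and EPCAM in the upper case of the table): the desmosomal cadherins Dsg2 and Dsc2, the plaque proteins Dsp, Pkp2 and Pkp3, the related plakophilin Pkp4, the simple epithelial keratins Krt8, Krt18 and Krt19, and the adhesion molecule Epcam. All 10 symbols were found among the 18388 in the deposited table, and all 10 passed the filter of a mean of at least 1 FPKM (fragment counts divided by transcript length and by library size) over the 6 libraries. The samples were morula-like aggregates, clusters of mouse expanded pluripotent stem cells that serve as a model of the early embryo at compaction. There were 3 libraries from aggregates given the vehicle dimethyl sulfoxide (DMSO) and 3 from aggregates given perfluorooctanoic acid (PFOA), a persistent fluorinated surfactant, and both groups went through N2B27LCDM medium and then an induction medium at 37 °C in 5% CO2 and 20% O2. No source used here gives the stem cell line, the dose or the exposure time. Nothing in the labels ties each library to its own culture, and p-values therefore measure the spread between libraries alone, which may be technical.

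In a desmosome, cadherins of the desmoglein and desmocollin families bind across the gap between cells, plakoglobin and plakophilins gather under the membrane, and desmoplakin links that plaque to keratin. Keratins form filaments only as pairs of a type II chain, such as Krt8, with a type I chain, such as Krt18 or Krt19. In the mouse embryo Krt8 and Krt18 are among the first keratins made and become prominent in trophectoderm, the outer epithelium of the blastocyst. Epcam is an epithelial adhesion molecule that embryonic stem cells also carry.

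The labelled cell type was checked first. All 8 pluripotency markers passed the filter, led by Dppa5a and Pou5f1, and their summed FPKM lay between 4590 and 4802 in the controls, against 3948 to 4439 in PFOA. That sum is mostly Dppa5a (2239 and 1952 FPKM on average in DMSO and PFOA) and Pou5f1 (979 and 885), whose transcripts are short (619 and 1362 nt), while 3 of the 8 (Esrrb, Zfp42 and Tdgf1) were higher in PFOA. The list's median log2 fold change was −0.032, and 0.042 with a trend on transcript length removed. Of 8 trophectoderm markers, which include Krt8 and Krt18 of the set, 7 passed, and Elf5 was at 0.03 to 0.1 FPKM. Their summed FPKM averaged 547 in DMSO and 532 in PFOA, and 53.9 and 54.3 without Krt8 and Krt18. Of 6 primitive endoderm markers 1 passed (Gata4). The keratinocyte markers, whose cells are rich in desmosomes, were at 0 of 6 past the filter, with a summed FPKM of 1.36 to 1.52 in DMSO and 1.3 to 1.47 in PFOA. Of 10 fibroblast markers, the cells of a feeder layer, 8 passed, with a summed FPKM of 45.8 to 51.9 in DMSO and 42.7 to 48.0 in PFOA. Fbln1 made up much of that sum, at a mean of 24.3 FPKM in DMSO and 23.9 in PFOA. Next came Thy1 (8.30 and 6.84) and Dcn (7.59 and 6.24), and Col1a1 was at 2.17 and 2.13. In bulk RNA, fewer cells of a type and less RNA per cell cannot be told apart. The column totals were 641975 to 657239 FPKM in DMSO, against 585739 to 630644 in PFOA, and the depth is unknown because the deposited table holds no counts.

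The RefSeq promoter table (build GRCm38.p6, not the GRCm39 of the submitters' processing notes) matched 5 of the 10 genes. Shown are the 250 bases before the start site of Krt8 and Krt18, adjacent coding genes in RefSeq's order whose transcripts were highest in the same library of each group, and of Dsp, 1 of the 3 genes of the set that were higher at an unadjusted p under 0.05. Capitals mark every match, on either strand, to CACGTG (the MYC-MAX E-box), TGANTCA (AP-1), GCCNNNGGC (TFAP2), GGGCGG (GC box) or TATAAA. Krt8 lies on the minus strand at chr15:102004343-102004592, Krt18 on the plus strand at chr15:102027966-102028215 and Dsp on the plus strand at chr13:38151044-38151293.
Krt8: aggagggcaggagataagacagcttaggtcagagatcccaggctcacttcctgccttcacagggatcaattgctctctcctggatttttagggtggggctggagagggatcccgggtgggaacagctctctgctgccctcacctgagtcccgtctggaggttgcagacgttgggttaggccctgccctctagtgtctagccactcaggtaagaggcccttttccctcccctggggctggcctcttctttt
Krt18: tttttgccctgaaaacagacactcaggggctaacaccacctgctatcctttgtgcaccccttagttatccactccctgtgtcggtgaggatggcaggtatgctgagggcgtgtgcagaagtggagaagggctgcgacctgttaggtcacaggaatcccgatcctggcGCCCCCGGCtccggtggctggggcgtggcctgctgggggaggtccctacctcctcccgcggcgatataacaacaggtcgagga
Dsp: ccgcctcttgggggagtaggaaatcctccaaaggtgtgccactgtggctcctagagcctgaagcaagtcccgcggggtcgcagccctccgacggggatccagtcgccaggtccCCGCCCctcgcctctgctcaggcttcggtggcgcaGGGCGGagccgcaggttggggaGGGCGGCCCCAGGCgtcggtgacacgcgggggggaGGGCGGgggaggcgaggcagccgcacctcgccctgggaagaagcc
The Dsp window held 4 GC boxes and 1 GCCNNNGGC, which overlaps the third GC box by 1 base. Krt18 held 1 GCCNNNGGC and Krt8 none of the 5 motifs, so all of its letters are small. CACGTG, named because the series title names c-MYC, was in 0 of the 6 windows of the 5 matched genes (Pkp4 has a pair of start sites), against 6.02% of all 32851 windows. GGGCGG was in 32.7% of all windows and GCCNNNGGC in 13.7%. These matches describe letters only.

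Transcript levels spanned from the most to the least abundant genes of the set in the same order in both groups. On the FPKM scale, which divides by transcript length, the DMSO means (SD, n = 3) ran from Krt18 (270.5 ± 17.97) and Krt8 (223 ± 19.2) through Epcam (95.7 ± 0.53), Pkp4 (31.2 ± 1.4), Pkp2 (17.9 ± 0.77), Krt19 (17.7 ± 3.1), Dsg2 (11.7 ± 0.50), Dsp (7.96 ± 0.43) and Pkp3 (5.74 ± 0.38) to Dsc2 (2.54 ± 0.20). Pkp2 and Krt19 overlapped and could not be ordered. Krt18 was above 97.4% of tested genes in mean FPKM and Krt8 above 96.6%, whereas Dsc2 was above 16.0%. Krt8 and Krt18 were thus each above every desmosomal gene of the set, and Krt19 was not. Krt8, Krt18 and Krt19 together were at 557, 491 and 485 FPKM in DMSO 1 to 3, and the 6 desmosomal genes together at 76.7, 75.1 and 79.4, a sum without the plaque gene Jup, which is described further on.

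None of the 10 genes passed the test between PFOA and DMSO (limma on log2(FPKM + 1), Benjamini-Hochberg adjusted over 11876 genes), where 1 gene of all tested, or 0.00842%, was called. At an unadjusted p under 0.05 there were 4 of the 10, against 21.1% of all genes: 3 higher in PFOA (Dsp, Dsg2, Dsc2; all genes 8.56%) and 1 lower (Epcam; all genes 12.5%). The groups did not overlap for 3 of the 10, against 27.2% of all genes: Dsp and Dsg2 were higher in PFOA (all genes 13.5%) and Epcam was lower (all genes 13.7%). The median log2 fold change of the 10 was 0.027, against −0.0065 over all genes tested. By role, the 6 desmosomal genes had a median of 0.11 and all 6 were above 0, and Epcam and the 3 keratins had a median of −0.052 with 1 of 4 above 0. The 2 tested desmosome genes outside the set, Jup and Perp, were both below 0 (−0.029 and −0.069), so not every tested desmosome gene was above 0. Their 95% confidence intervals included 0 (−0.12 to 0.060 for Jup, −0.22 to 0.085 for Perp), so their own direction is not settled. Over all genes 47.6% were above 0. For the 10 genes the 95% confidence intervals reached a median of 0.13 to either side, as wide as most of the differences.

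**Figure D1:**
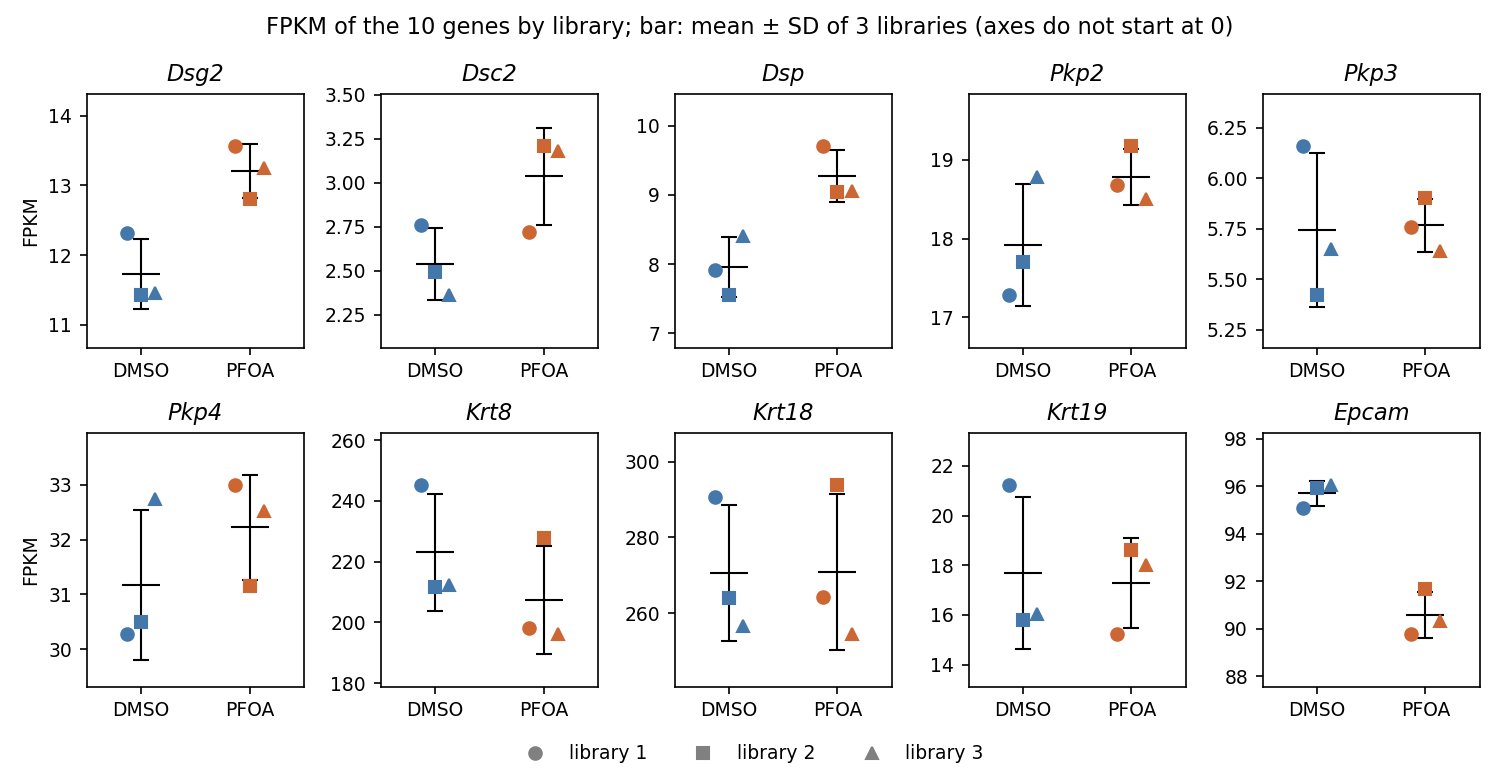
FPKM of each gene (vertical axis, not starting at 0) in the 3 DMSO and 3 PFOA libraries, marked by library number, with the mean and SD of each group. Dsg2 and Dsp are higher in every PFOA library than in any DMSO library and Epcam is lower in every PFOA library; the other 7 genes overlap.

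The desmosomal cadherins were both higher in PFOA on average. Dsg2, a desmoglein found in simple epithelia and in pluripotent stem cells, was at 12.3, 11.4 and 11.5 FPKM in DMSO 1 to 3, against 13.6, 12.8 and 13.3 in PFOA 1 to 3. Each PFOA value lay above each DMSO value, and the mean was 12.6% higher. Its log2 fold change was 0.16 (SE 0.049, 95% confidence interval 0.046 to 0.27, limma adjusted p = 0.152). Dsc2, the desmocollin that pairs with Dsg2 in simple epithelia, was at 2.76, 2.49 and 2.36 FPKM in DMSO against 2.72, 3.21 and 3.18 in PFOA. Here PFOA 1 lay inside the DMSO range while PFOA 2 and 3 lay above it. The log2 fold change was 0.19 (SE 0.079, interval 0.0099 to 0.37, limma adjusted p = 0.22). Because Dsc2 is low, the added 1 FPKM shrinks its fold change: its mean FPKM was 19.7% higher. Its groups no longer overlapped without DMSO 1 (0.24) or without PFOA 1 (0.25), as for 34.9% and 33.2% of all genes in those settings. Dsg2 exceeded Dsc2 in every library, by 4.46, 4.59 and 4.86 times in DMSO and 4.99, 3.99 and 4.17 times in PFOA.

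Desmoplakin (Dsp), the plaque protein that grips keratin filaments, was, with Dsc2, the gene of the set with the largest log2 fold change. Which of the pair was larger depended on the setting: with a pseudocount of 0.1 Dsc2 was at 0.25 and Dsp at 0.22. It was at 7.92, 7.55 and 8.41 FPKM in DMSO 1 to 3, against 9.71, 9.05 and 9.06 in PFOA 1 to 3. No PFOA library reached down to DMSO 3, the highest control, and PFOA 1 stood highest. The mean was 16.5% higher and the log2 fold change 0.20 (SE 0.057, interval 0.068 to 0.33, limma adjusted p = 0.138). Plakophilins bind desmoplakin and cadherin tails. Pkp2, the plakophilin of simple epithelia and heart, was at 17.3, 17.7 and 18.8 FPKM in DMSO against 18.7, 19.2 and 18.5 in PFOA. DMSO 3 lay within the PFOA range, and the log2 fold change was 0.065 (interval −0.038 to 0.17, limma adjusted p = 0.435). Without DMSO 3 the groups no longer overlapped (0.098, limma adjusted p = 0.28), as for 42.6% of all genes in that setting.

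Pkp3 and Pkp4 did not separate the groups. Pkp3, a plakophilin of most epithelial desmosomes, was at 6.16, 5.42 and 5.65 FPKM in DMSO against 5.76, 5.9 and 5.64 in PFOA, so that every PFOA value lay within the DMSO range. Its log2 fold change was 0.0063 (interval −0.13 to 0.14, limma adjusted p = 0.962). Pkp4, a p120-related protein found at adherens junctions as well as desmosomes, was at 30.3, 30.5 and 32.7 FPKM in DMSO against 33.0, 31.2 and 32.5 in PFOA. DMSO 3 was above PFOA 2 and 3, and the log2 fold change was 0.047 (interval −0.055 to 0.15, limma adjusted p = 0.572). With a term that sets DMSO 1 and 2 apart and leaves DMSO 3 as the sole control, Pkp4 turned to −0.023. Without DMSO 3 it was at 0.082 and its groups did not overlap (limma adjusted p = 0.334), as for 42.6% of all genes in that setting.

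The keratins varied more between libraries of a group than between the groups. Krt8, the type II chain, was at 245, 212 and 212 FPKM in DMSO 1 to 3, against 198, 228 and 196 in PFOA 1 to 3. DMSO 1 stood above the other controls, PFOA 2 lay among the controls, and PFOA 1 and 3 lay below them. The log2 fold change was −0.11 (interval −0.28 to 0.066, limma adjusted p = 0.446), and it was −0.017 under quantile normalization. Single libraries moved it both ways: it was −0.035 without DMSO 1, −0.067 without PFOA 3, and −0.17 without PFOA 2. In that last setting the groups did not overlap, as for 38.9% of all genes. The unadjusted limma p was then 0.0351 (limma adjusted p = 0.215), and 19.9% of all genes had an unadjusted p under 0.05. Of the 50-nt words of the Krt8 transcript 26.9% also occur in the pseudogene Krt8-ps, so reads from either could have been counted for the other and its value is uncertain. For the other 9 genes that share was at most 0.72%.

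Krt18, the usual type I partner of Krt8, was at 291, 264 and 257 FPKM in DMSO against 264, 294 and 254 in PFOA. DMSO 1 and PFOA 2 were again the high libraries, and the log2 fold change was 0.0015 (interval −0.15 to 0.15, limma adjusted p = 0.992). Krt19, a type I keratin without the tail domain of its relatives, was at 21.2, 15.8 and 16.1 FPKM in DMSO against 15.2, 18.6 and 18.02 in PFOA. DMSO 1 was the highest of the 6 and PFOA 1 the lowest. Its spread within groups was wide: 95.02% of tested genes had a smaller residual SD on the log2 scale, against 82.4% for Krt8 and 73.5% for Krt18. The log2 fold change of Krt19 was −0.025 (interval −0.29 to 0.24, limma adjusted p = 0.919) and it was 0.11 without DMSO 1 and 0.058 without PFOA 1, so its sign rested on each of these libraries. Trophectoderm markers other than Krt8 and Krt18 were also highest in DMSO 1, at a summed FPKM of 57.4 against 51.3 and 52.9 in DMSO 2 and 3, and were at 53.7, 54.2 and 55.1 in PFOA. Their part in the keratin values was not tested.

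Between libraries of a group the ratio of the keratin pair varied less than the level of either gene. Krt8 over Krt18 in FPKM was 0.844, 0.801 and 0.828 in DMSO 1 to 3, against 0.749, 0.775 and 0.771 in PFOA 1 to 3. Every PFOA library thus had less Krt8 for its Krt18 than any DMSO library, also in PFOA 2, where both keratins were high. Against both type I chains together (Krt18 plus Krt19), Krt8 was at 0.786, 0.756 and 0.779 in DMSO against 0.708, 0.729 and 0.72 in PFOA. This ratio was chosen after its values were seen and was not tested, and the share of reads from Krt8-ps in it is unknown. The 6 desmosomal genes summed to 83.4, 81.3 and 82.2 FPKM in PFOA, each above the highest DMSO sum of 79.4, while the keratin sums of 478, 540 and 468 FPKM in PFOA overlapped those in DMSO. The sums were not tested. The desmosomal sum leaves out Jup (mean 66.37 FPKM in DMSO, 65.04 in PFOA) and Perp (26.35 and 25.13), whose groups overlapped. It includes Dsp, Dsg2, Dsc2 and Pkp4, with transcripts of 4000 nt or more, a class in which 77.8% of tested genes were above 0.

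**Figure D2:**
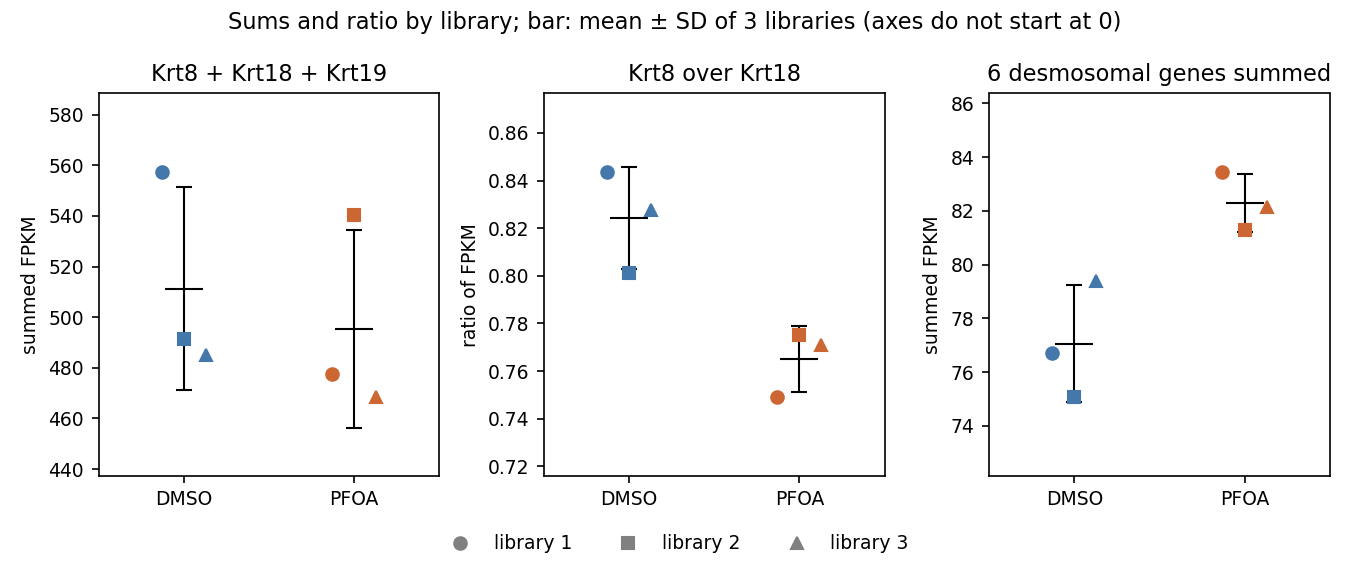
Summed FPKM of Krt8, Krt18 and Krt19 (left), the ratio of Krt8 to Krt18 FPKM (middle) and the summed FPKM of Dsg2, Dsc2, Dsp, Pkp2, Pkp3 and Pkp4 (right) in each library, with the mean and SD of 3 libraries; axes do not start at 0. The keratin sums overlap between groups (468 to 540 in PFOA, 485 to 557 in DMSO), and the ratio is lower in all 3 PFOA libraries (0.749 to 0.775 against 0.801 to 0.844).

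Epcam was the most evenly measured gene of the set. It was at 95.1, 95.9 and 96.1 FPKM in DMSO 1 to 3, against 89.8, 91.7 and 90.3 in PFOA 1 to 3. All PFOA values lay below all DMSO values, and the mean was lower by a small step, from 95.7 ± 0.53 to 90.6 ± 0.98 (SD, n = 3 each). Only 0.337% of tested genes had a smaller residual SD. The log2 fold change was −0.078 (SE 0.032, interval −0.15 to −0.0053, limma adjusted p = 0.215). Limma draws so small a spread toward that of other genes, which widens the SE. Under quantile normalization it was −0.020 and the groups overlapped. The column totals were also lower in PFOA, with a mean of 613181 FPKM against 651456 in DMSO. Epcam was not tested as a share of that total.

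Transcript length moved with these differences. The longest coding transcript (GENCODE M21) was 9592 nt for Dsp, 5766 for Dsg2, 4630 for Dsc2 and 4614 for Pkp4, and all 4 had a log2 fold change above 0, as did 77.8% of the 3809 tested genes of 4000 nt or more. Pkp2 (2918 nt) and Pkp3 (2919 nt) were above 0 and Epcam (2040 nt) below, in a class from 2000 up to 4000 nt where 43.0% of 4655 genes were above 0. Krt8 (1958 nt) and Krt19 (1576 nt) were below 0 and Krt18 (1437 nt) was at 0.0015, in a class under 2000 nt where 17.1% of 3072 genes were above 0. Over all genes with a length the rank correlation of length with log2 fold change was 0.598 (Spearman's rho; genes share libraries and are not independent).

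With a per-library trend on that length removed, the log2 fold change of Dsp was 0.076 (limma adjusted p = 0.50) and that of Dsg2 0.093 (0.414). Dsp was then the single gene of the 10 whose groups did not overlap, against 20.2% of all genes on that scale, and 0 of the 10 had an unadjusted p under 0.05, against 13.4% of all genes. Dsc2 kept more of its difference (0.15, limma adjusted p = 0.451), and Epcam was at −0.022 with overlapping groups. Krt18 moved up to 0.10 (limma adjusted p = 0.479) and Krt19 to 0.063, while Krt8 was at −0.044. On that scale the 6 desmosomal genes had a median of 0.078, the 4 others 0.021 and all genes 0.0022. Jup and Perp, desmosome genes outside the set, were at −0.024 and −0.0072.

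**Figure D3:**
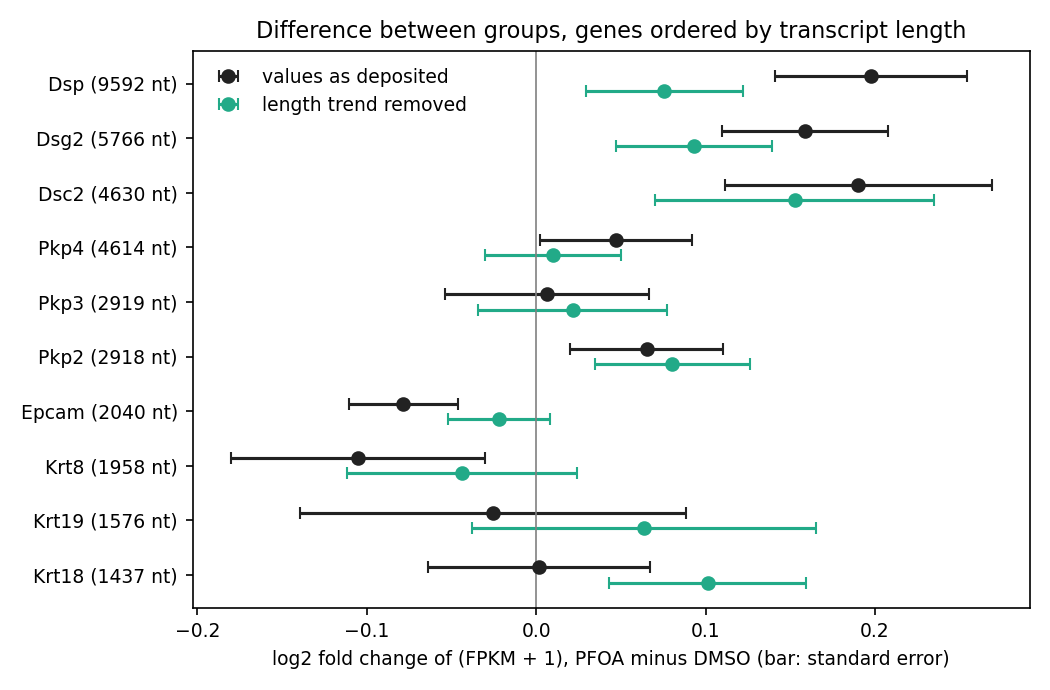
Log2 fold change of FPKM + 1, PFOA minus DMSO (horizontal axis), with its standard error, for each gene ordered by the length of its longest coding transcript, with values as deposited and with the per-library length trend removed. Dsp moves from 0.20 to 0.076 and Dsg2 from 0.16 to 0.093 when the trend is removed.

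**Figure D4:**
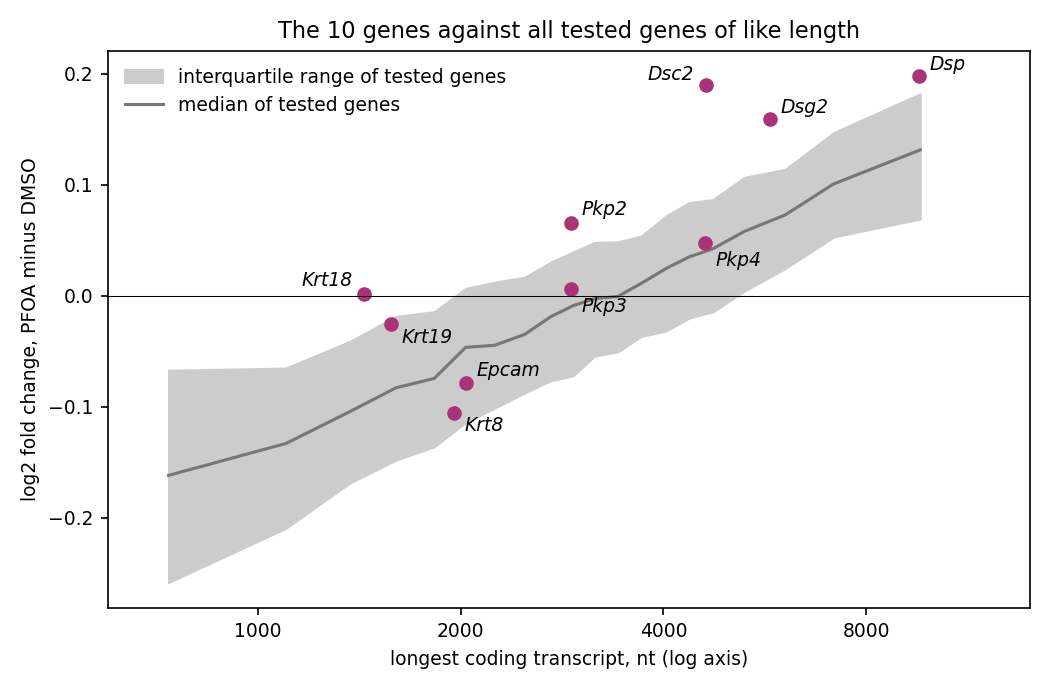
Log2 fold change (vertical axis) against longest coding transcript (log axis) for the 10 genes as points, with the median (line) and interquartile range (band) of all tested genes in 20 bins of length. Dsc2, Dsg2, Pkp2, Krt18 and Dsp lie above the band, and Pkp3, Pkp4, Krt19, Epcam and Krt8 within it.

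Other desmosome and keratin genes were few in these aggregates. Of 10 further desmosome genes 7 were in the table and 2 passed the filter. Plakoglobin (Jup), which joins cadherin tails to desmoplakin, was at 68.3, 65.1 and 65.7 FPKM in DMSO against 62.9, 65.6 and 66.7 in PFOA, a level 8.63, 8.63 and 7.81 times that of Dsp in DMSO and 6.47, 7.25 and 7.36 times in PFOA. Perp, a small membrane protein of desmosomes, was at 25.1, 27.0 and 27.0 FPKM in DMSO against 24.1, 27.9 and 23.3 in PFOA. The cadherins of stratified epithelium Dsg3 and Dsc3 stayed at or under 0.12 FPKM in each library. Of 16 further keratins 15 were in the table and 3 passed: Krt7, a type II keratin of trophectoderm, at 10.9 ± 0.66 FPKM in DMSO and 11.0 ± 0.84 in PFOA, Krt42 at 3.48 ± 0.40 and 3.10 ± 0.49, and Krt17 at 2.06 ± 0.51 and 1.89 ± 0.47 (SD, n = 3 each). None of these genes was called, and 0 of 2 and 0 of 3 had an unadjusted p under 0.05.

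Among proteins that link or resemble keratin filaments, 10 of 11 were tested and 0 were called. An unadjusted p under 0.05 was seen for 3 that were higher (all genes 8.56%) and 1 that was lower (all genes 12.5%). The 3 higher ones were plakins, giant linkers of the desmoplakin family. A further plakin, Eppk1, fell under the filter and was not tested. It was at 0.65, 0.65 and 0.71 FPKM in DMSO 1 to 3, against 0.86, 0.8 and 0.77 in PFOA 1 to 3. Of the other plakins listed, periplakin (Ppl) was at 2.01 ± 0.020 FPKM in DMSO and 2.36 ± 0.25 in PFOA (unadjusted p = 0.075) and envoplakin (Evpl) at 1.65 ± 0.24 and 1.60 ± 0.18. Macf1 was at 17.8 ± 1.2 FPKM in DMSO and 21.7 ± 2.5 in PFOA, Dst at 18 ± 1.2 and 21.3 ± 2.6, and plectin (Plec) at 9.32 ± 0.11 and 10.5 ± 0.70 (SD, n = 3 each). Their transcripts are the longest in these lists (23495, 23279 and 15455 nt), and their log2 fold changes of 0.26, 0.23 and 0.16 became 0.058, 0.020 and −0.012 once the length trend was taken out. Lamin B2 (Lmnb2), of the nuclear lamina, was at 35.8 ± 0.37 and 33.2 ± 0.47 (limma adjusted p = 0.156). Vimentin (Vim), a filament protein of mesenchymal and cultured cells, was at 47.4, 51.1 and 45.6 FPKM in DMSO against 40.7, 39.9 and 48.1 in PFOA, with PFOA 3 inside the control range.

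Of 11 partners and proteases of Epcam 10 were tested, and 2 of the 10 were above 0 in log2 fold change, against 47.6% of all genes. At an unadjusted p under 0.05 there was 1 in each direction (all genes 8.56% higher and 12.5% lower) and 0 were called. Cldn7, a claudin that binds Epcam, was at 24.95, 25.6 and 27.7 FPKM in DMSO against 22.7, 25.4 and 20.6 in PFOA, and its groups overlapped at DMSO 1 and PFOA 2 (limma adjusted p = 0.209). The protease inhibitors Spint1 and Spint2, which restrain the matriptase that cleaves Epcam, were at 35.1 ± 1.0 and 142 ± 5.8 FPKM in DMSO and 32.8 ± 0.98 and 132 ± 6.2 in PFOA. The sheddase Adam10 was at 7.89 ± 0.082 and 8.86 ± 0.37 (limma adjusted p = 0.168). The median of this list was −0.041, or 0.0096 once the length trend was taken out.

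Transcription and splicing regulators of simple epithelium and trophectoderm gave 14 tested of 15, with 9 above 0 (all genes 47.6%) and 0 called. At an unadjusted p under 0.05 there was 1 gene in each direction (all genes 8.56% higher and 12.5% lower). Klf5, a factor of trophectoderm and pluripotency, was at 51.9, 52.1 and 50.4 FPKM in DMSO against 58.5, 58.3 and 58.5 in PFOA, so its groups stood well apart (log2 fold change 0.18, limma adjusted p = 0.11, and 0.18 with the length trend removed). Elf3, an epithelial ETS factor, was at 50.8 ± 2.4 and 47.2 ± 0.53. Esrp2, a splicing regulator of epithelia, was at 7.34 ± 0.83 and 6.41 ± 0.32, and the grainyhead factor Grhl3 at 5.43 ± 0.22 and 6.12 ± 0.55. Tfap2c, a trophectoderm factor, was at 26.8 ± 1.2 and 27.7 ± 0.92. Of 5 repressors of epithelial genes 3 were tested: Snai1 was at 15.7, 13 and 12.2 FPKM in DMSO against 11.8, 11.2 and 12.1 in PFOA (limma adjusted p = 0.227), Twist1 at 3.61 ± 0.32 and 3.40 ± 0.35, and Zeb1 at 2.51 ± 0.13 and 2.79 ± 0.41 (SD, n = 3 each). Snai1 was highest in DMSO 1, the library in which Krt8 and Krt19 were highest too.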

How the data were processed

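RNA-seq of poly(A)-enriched total RNA (1.2 µg, RNA integrity number above 8.0, BGISEQ-500) was deposited as 1 table of FPKM per gene and library, with 2 decimals. HISAT2 2.0.4, Bowtie2 2.2.5 and GRCm39 appear in the submitters' processing notes, without their roles. No source used here gives the counting tool or annotation. FPKM was made by the authors, per the file's name. No 2 libraries were identical. Of 4111 low values 17.3% lay within 0.15 of a whole multiple of the gene's lowest value, below the 30% that an even spread gives, so reads could not be recovered for a count test.

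Groups and replicate numbers came from sample titles. From the deposited FPKM, log2(FPKM + 1) was tested for 11876 genes with a mean of at least 1 FPKM (6512 left out) with limma 3.58.1 under R 4.3.3, using an intensity trend, two-sided, adjusted over all genes, called under 0.05. On simulated data for this comparison (11876 genes, 5 runs, 200 changed genes each) 52.2% of 1.25-fold and 91.2% of 1.5-fold changes were called. Those folds were set in FPKM + 1, so for a low gene they stand for a larger change in FPKM. Noise was drawn for each gene alone, without the length trend of the real libraries. A lowess trend (span 0.3) on transcript length was removed per library in 1 alternative; 97.1% of tested genes had a length. The genes and lists were chosen with earlier results of these data known. All 10 genes are named, and of each further list up to 4 tested genes with the smallest p, plus Jup, Vim, Perp and Tfap2c. Marker genes, Dsg3, Dsc3, Ppl, Evpl and Eppk1 were named after their values were seen. Exact permutation tests were not used, since 3 against 3 libraries cannot give a two-sided exact p below 0.1.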

Additional observations from a re-analysis of the deposited data

How the results depend on the processing

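Across the 18 alternatives 0 of the 10 genes was called, and Dsg2, Dsc2, Dsp and Pkp2 stayed above 0 and Krt8 and Epcam below 0 wherever they were tested (with a mean FPKM of at least 5 Dsc2 is left out). No alternative divided by the column total, which averaged 651456 FPKM in DMSO and 613181 in PFOA. Whether these signs hold on that scale was not tested. The lowest and highest log2 fold changes were 0.076 and 0.23 for Dsp, 0.093 and 0.19 for Dsg2, 0.092 and 0.26 for Dsc2, 0.00033 (the term for DMSO 1 and 2) and 0.10 for Pkp2, −0.17 and −0.017 for Krt8, and −0.087 and −0.020 for Epcam. Genes near 0 turned sign. Pkp3 was at −0.0024 without both DMSO 3 and PFOA 1, and leaving out 1 library gave −0.028 to 0.050. Pkp4 was at −0.023 with a term for DMSO 1 and 2. Krt18 was at −0.019 without both DMSO 3 and PFOA 1, and −0.058 to 0.055 over the single libraries left out. Krt19 was at 0.038 with library weights, 0.063 with the length trend removed and 0.096 with the term for DMSO 1 and 2, and −0.096 to 0.11 over the single libraries left out.

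The genes of the set with an unadjusted p under 0.05, 4 in all, were 0 with the length trend removed, 1 with the term for DMSO 1 and 2, 2 without both DMSO 3 and PFOA 1, and 2 to 3 over single libraries left out. The share of all genes moved as well, from 21.1% to 13.4%, 6.89% and 18.6% under the first 3 of these. Over single libraries left out it was 13.1% (without DMSO 2) to 21.5% (without DMSO 3). Those whose groups do not overlap, 3 in all, were 1 with the length trend removed, 6 without both DMSO 3 and PFOA 1, and 3 to 5 over single libraries left out, the highest without DMSO 3. The share of all genes was 27.2%, and 20.2%, 50.3% and, without DMSO 3, 42.6%. Over all genes, 1 call became 0 without the filter, without the variance trend, with the length trend removed or with the term for DMSO 1 and 2, became 2 with library weights and 52 without both DMSO 3 and PFOA 1, and ranged from 0 to 94 over single libraries left out: 52 without DMSO 3 and 94 without PFOA 2. At an unadjusted p under 0.05, quantile normalization turned 1016 higher and 1489 lower genes into 1362 and 1114. Same-numbered libraries did not deviate together (correlations of −0.11, −0.0095 and −0.14). With 3 libraries per group these values cannot tell whether same-numbered libraries were prepared together. With the replicate number as a block 0 genes were called and 2 of the set had an unadjusted p under 0.05, against 16.6% of all genes. Causes of these shifts were not tested. Depth is unknown, and the simulated fit missed many changes larger than that of any of the 10 genes.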
